A study of Mus musculus with 2 samples.

Results

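Long noncoding RNA (lncRNA) genes that overlap no protein-coding record of the deposited table were examined in F123 cells, a male hybrid mouse embryonic stem cell (mESC) line from a cross of a CAST father with an S129 mother. The 512 intergenic lncRNA genes were chosen by 4 criteria. Each is annotated as lncRNA, has a TPM (transcript abundance scaled to length and library size) of at least 1 over the transcript span, overlaps no protein-coding record of the table, and has no protein-coding start site on the opposite strand within 2 kb. Lncenc1, Malat1, Neat1, Gas5, Meg3, Rian, Mirg, H19, Peg13, B830012L14Rik and genes named Platr or Snhg were left out by name, which removed 33 of 545 genes. Other named lncRNAs, and some members at imprinted loci such as Gm49959 and Gm49958 on Airn, remain. The 512 genes are 22.2% of the 2309 lncRNA genes with a TPM of at least 1. Of the others, 1519 overlapped a coding record and 245 had only a divergent coding start. Because TPM selected the genes, their levels are given as a description. The criteria used no allelic reads, but the members were chosen with earlier results of these data known. Some genes left out by name, such as Peg13, are imprinted. Against every isoform in GENCODE M21, 93 of the 512 overlap a coding gene. By its gene types, 72 are antisense, 13 sense intronic and 2 protein-coding. The smallest gap to a coding record was 3 bases. The 512 genes are called intergenic lncRNA genes here by the rule alone.

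Total RNA was sequenced from 2 replicates of F123 cells, grown on feeder fibroblasts and then moved to gelatin-coated plates without feeders before harvest. The line is of a single cross direction, so strain and parent of origin cannot be told apart: CAST is always the paternal and S129/Jae always the maternal allele. The replicates were summed in the deposited table, which leaves no spread between them to compute, and intervals and standard errors (SE) cover counting error only. Intervals are exact (Clopper-Pearson, 95%). Reads that cover more than 1 variant may enter the counts repeatedly, and all genes lie on chromosomes 1 to 19.

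Intergenic lncRNAs are mostly transcribed by RNA polymerase II and often spliced, but have little coding potential. They tend to be less abundant and more cell type-restricted than messenger RNAs, and their sequences evolve faster than those of coding genes. Some act on genes near their own site of transcription, some act elsewhere in the cell, and some serve as precursors of microRNAs (miRNAs) or small nucleolar RNAs (snoRNAs). The 9 stem cell markers examined had TPM values from 12.1 to 297, with Pou5f1 at 232, Sox2 at 297 and Nanog at 169. The 7 fibroblast markers ranged from 0.0369 to 4.4 TPM, with Col1a1 at 0.67. The endoderm genes Sox17, Gata6 and Gata4 stood at 21.4, 8.81 and 3.81 TPM, the neural genes Sox1 and Pax6 at 10.3 and 2.44, and the mesoderm genes T and Mixl1 at 1.74 and 0.467.

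The sequences first shown are the start regions of members with strongly unequal alleles, as reference for where these transcripts begin. RefSeq (GRCm38.p6) gives a promoter, 250 bases before to 50 after the start, for 194 members by symbol, and for 92 of them the start lies within 50 bases of the start used in the table. Capitals mark matches, on either strand, to 5 letter strings of known promoter elements: the CCAAT, GC and TATA boxes, the octamer and an ETS motif. The CAST-biased members shown are Gm10874 (chr5:138363469-138363768, plus strand), Gm33301 (chr15:40162357-40162656, plus strand) and Gm31693 (chr3:21702565-21702864, plus strand). The S129-biased members shown are Gm26760 (chr15:92344109-92344408, plus strand) and 1700030C10Rik (chr12:20815730-20816029, minus strand).
Gm10874: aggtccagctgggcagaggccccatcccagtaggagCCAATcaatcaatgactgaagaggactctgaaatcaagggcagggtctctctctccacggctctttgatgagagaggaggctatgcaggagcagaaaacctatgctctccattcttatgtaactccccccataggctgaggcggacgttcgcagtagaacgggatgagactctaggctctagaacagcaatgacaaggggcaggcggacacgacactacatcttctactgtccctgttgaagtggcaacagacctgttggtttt
Gm33301: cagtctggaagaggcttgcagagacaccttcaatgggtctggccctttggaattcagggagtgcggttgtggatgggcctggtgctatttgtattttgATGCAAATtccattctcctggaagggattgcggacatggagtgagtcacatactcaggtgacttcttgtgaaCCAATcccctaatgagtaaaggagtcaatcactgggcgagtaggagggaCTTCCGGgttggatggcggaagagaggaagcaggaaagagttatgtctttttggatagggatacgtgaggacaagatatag
Gm31693: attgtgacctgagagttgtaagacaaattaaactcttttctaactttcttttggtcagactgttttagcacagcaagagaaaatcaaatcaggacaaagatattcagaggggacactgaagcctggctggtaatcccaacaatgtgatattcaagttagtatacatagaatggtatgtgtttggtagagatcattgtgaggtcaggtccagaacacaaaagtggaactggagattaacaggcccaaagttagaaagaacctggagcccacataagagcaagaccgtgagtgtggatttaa
Gm26760: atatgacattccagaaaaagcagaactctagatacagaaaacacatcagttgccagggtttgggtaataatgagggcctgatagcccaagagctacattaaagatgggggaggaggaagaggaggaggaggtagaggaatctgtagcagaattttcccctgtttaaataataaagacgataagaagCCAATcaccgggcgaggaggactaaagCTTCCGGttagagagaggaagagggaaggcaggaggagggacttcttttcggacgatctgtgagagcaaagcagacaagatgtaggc
1700030C10Rik: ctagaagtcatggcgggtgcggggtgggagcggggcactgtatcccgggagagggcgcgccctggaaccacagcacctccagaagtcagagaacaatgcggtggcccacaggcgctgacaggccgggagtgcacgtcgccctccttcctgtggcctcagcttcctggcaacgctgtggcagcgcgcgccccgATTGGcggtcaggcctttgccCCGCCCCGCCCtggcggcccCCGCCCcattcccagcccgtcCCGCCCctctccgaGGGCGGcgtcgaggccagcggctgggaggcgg

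The CAST-biased Gm33301 and the S129-biased Gm26760 both carry a CCAAT box and an ETS match in this window, while Gm31693 carries none of the 5 letter strings. The start of 1700030C10Rik is rich in GC boxes, and its ratio of observed to expected CpG was 0.73 against 0.087 at Gm31693. The CCAAT box (letters CCAAT) was present in 53.3% of the 92 member promoters and in 37.4% of all 32851 RefSeq promoters. The ETS motif (CCGGAAG) was found in 18.5% against 8.86%. The octamer (ATGCAAAT), whose letters are bound by POU proteins such as Pou5f1, was found in 7.61% against 1.74% (7 of 92 and 570 of 32851). Of the 7 matches, those of Gm20939, Gm32856 and Gm21814 lie in stretches that resemble each other, so they are not independent. The same limit applies to the CCAAT and ETS shares. BC002059, Gm5165 and Gm6712 resemble each other, as do Gm17768, Gm1976 and Gm7762, and each of these carries both motifs. The TATA box (TATAAA) was present in 14.1% of member promoters against 13.6%. The GC box (GGGCGG) was present in 37% against 35.7%. A CpG ratio of at least 0.6 was found in 26.1% of member promoters and in 35.8% of all promoters. These shares describe letters in a window and carry no test, and the 92 are the members whose start RefSeq shares.

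A second set of sequences comes from members that span miRNA genes. Mir17hg (chr14:115042879-115046727, plus strand) is the host of the miR-17-92 cluster, whose mature miRNAs promote proliferation. They are shown because their seeds, bases 2 to 8 in capitals, fall into 4 families. miR-17-5p and miR-20a-5p share AAAGUGC, miR-19a-3p and miR-19b-3p share GUGCAAA, and miR-18a-5p and miR-92a-3p each have their own.
mmu-miR-17-5p: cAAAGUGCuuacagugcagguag
mmu-miR-20a-5p: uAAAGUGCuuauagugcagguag
mmu-miR-18a-5p: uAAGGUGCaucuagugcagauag
mmu-miR-19a-3p: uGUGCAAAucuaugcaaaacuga
mmu-miR-19b-3p: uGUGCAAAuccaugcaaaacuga
mmu-miR-92a-3p: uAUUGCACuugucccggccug

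The let-7 family, which opposes the stem cell state and is blocked in mESCs by Lin28, is represented by 6720427I07Rik (chr13:48532905-48546500, minus strand). Its 3 mature 5p arms share the seed GAGGUAG. The other host shown, Gm49890 (chr4:88909855-88938521, minus strand), spans miR-31.
mmu-let-7a-5p: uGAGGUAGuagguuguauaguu
mmu-let-7d-5p: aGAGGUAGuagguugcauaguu
mmu-let-7f-5p: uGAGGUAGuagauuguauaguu
mmu-miR-31-5p: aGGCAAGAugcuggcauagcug

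Most members were present at low levels. Their median TPM was 2.9 (quartiles 1.6 and 6.45), against 6.7 for 10902 coding genes and 3.7 for the 1797 other lncRNA genes with a TPM of at least 1. Of the 512 members, 183 had a TPM under 2, 78 had at least 10, 16 had at least 50 and 8 had at least 100. The transcripts spanned 3.49 kb in the median, against 16.7 kb for coding genes. The extremes were A830082N09Rik with 66 bases, Gm26940 with 105 bases (host of miR-219a-1), Gm23925 with 132 bases, 2600014E21Rik with 178966 bases, Pvt1 with 212913 bases and a noncoding record of Trerf1 with 221017 bases. At the TPM threshold, the lowest members were Gm11413 (1.003), Gm48730 (1.008) and Gm10479 (1.019). The lncRNA genes just below it were E230001N04Rik (0.9976), Gm50350 (0.9956) and Gm46560 (0.9891).

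Several of the highest levels belonged to loci that resemble abundant small or ribosomal RNAs. AY036118 (4051 TPM), Gm26917 (2954 TPM) and Gm42418 (2732 TPM) lie together within chr17:39845074-39848788. GENCODE annotates a ribosomal RNA, CT010467.1, over the same site, and RefSeq an 18S ribosomal RNA pseudogene. Bc1, the brain cytoplasmic RNA transcribed by RNA polymerase III and known from neurons, had 355 TPM. AC121792.1 had 170 TPM, and its span (chr3:96414437-96414833) is the one RefSeq gives to Terc, the RNA template of telomerase. Gm10076 (142 TPM) has a near-identical stretch in Rpl41, and Gm28872 (104 TPM) in Rnu11, an RNA of the minor spliceosome. AY036118, Bc1, AC121792.1 and Gm10076 had no variant and so no allelic reads. The plot of TPM by allelic class shows these few genes far above the rest.

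**Figure D1:**
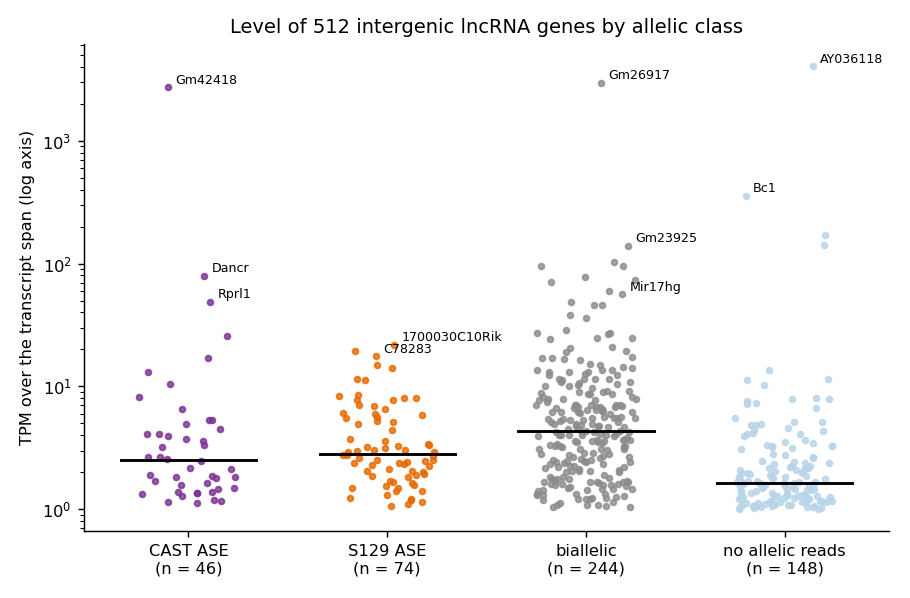
TPM over the transcript span (log axis) of each of the 512 intergenic lncRNA genes, by allelic class, with a line at the median of each class. Medians are 2.5 for CAST ASE, 2.84 for S129 ASE and 4.34 for biallelic genes, and single genes such as AY036118 reach above 1000 TPM.

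Allelic reads were available for 364 of the 512 members (71.1%), against 88.7% of all 17956 records with a TPM of at least 1. The other 148 members had no counted variant. The 364 had 113 allelic reads and 6 variants in the median, against 397 reads and 13 variants over all 15935 records tested. In 69 of the 364, all counted variants lay in introns. Genes with allele-specific expression (ASE) differed at least 2-fold between alleles, with an adjusted p of at most 0.05 by a two-sided exact binomial test, adjusted over all 18632 records with allelic reads. Genes below either threshold are called biallelic.

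Among the 364 members tested, 120 (33.0%) were ASE, where 14.1% of all 15935 records were. The S129 allele was the higher one in 74 members (20.3%, against 5.78% of all records) and the CAST allele in 46 (12.6%, against 8.33%). S129 thus held 61.7% of the ASE calls of the members, where it held 41.0% of all ASE calls. In the summed reads, members had 69448 CAST and 75450 S129 reads, 47.9% from CAST, and 46.8% without Gm26917 and Gm42418. Over all records the share was 50.4%, with 8230836 CAST and 8112857 S129 reads. At 11.7% of the variants in members, and 11.1% of those in all records, S129 carries the non-reference base.

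The imbalance of members was also wider. With at least 20 reads, the central range of the CAST share (quartiles) ran from 35.3% to 58.9% in 316 members and from 44.5% to 56.5% in 14969 records. The median absolute log2 fold change was 0.73 in these members and 0.35 in all these records. These spreads were not matched for depth. Tested members had 113 reads in the median against 397 over all tested records, and counting error is larger at lower depth. Of the 120 ASE members, 35 had a fold from 2 to 3, 27 from 3 to 5, 22 from 5 to 10, and 36 (30%) of at least 10, where 12.8% of all ASE records reached that size. Genes with reads from a single allele were placed by a lower bound, with 3 reads taken for a count of 0. The 30% and 12.8% are therefore lower limits. Among those 36, S129 was higher in 22 and CAST in 14. The plot of CAST share against reads shows strongly unequal members over a wide range of depth, but no member with more than 4384 reads was ASE.

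**Figure D2:**
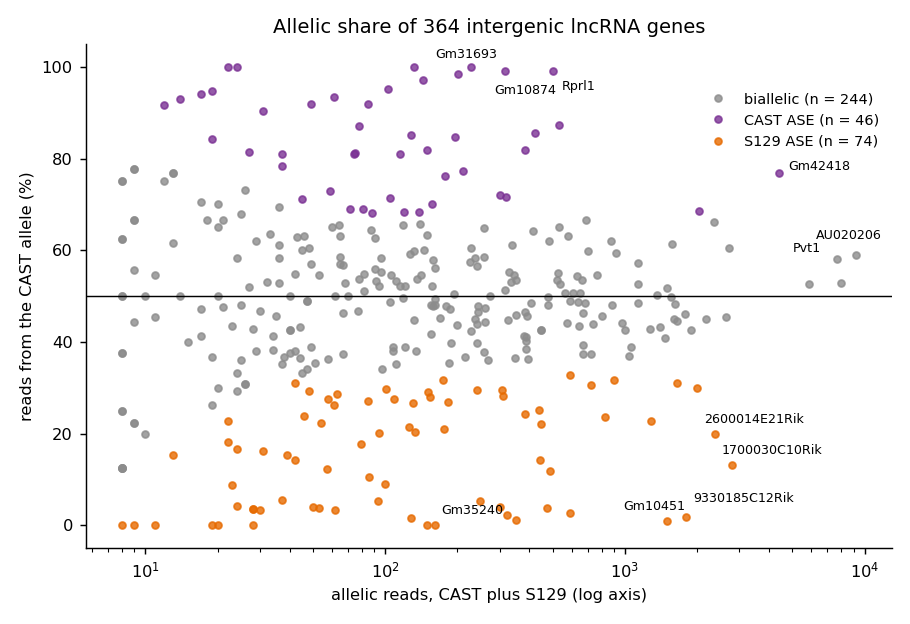
Share of reads from the CAST allele (%) against the number of allelic reads (log axis) of the 364 members with allelic reads, one point per gene, with the line at equal shares. The 46 CAST ASE genes (12 to 4384 reads) form the upper band and the 74 S129 ASE genes (8 to 2799 reads) the lower one.

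The higher share was seen at each depth. Of members with 100 to 499 reads, 38.2% were ASE against 16.1% of all records at that depth, and of members with at least 500 reads 22.9% against 8.83%. Below 20 reads the shares were 20.8% and 13.3%. By level, 44.6% of members with a TPM from 1 to under 2 were ASE (all records 21.9%), and 20% of those with a TPM of at least 10 (all records 11.9%). Other lncRNA genes had lower shares: 18% of 1098 that overlap a coding record and 25.2% of 159 with a divergent coding start, against 12.7% of 10232 coding records. In neither of these lncRNA classes was S129 the more frequent side, with 105 CAST and 93 S129 ASE genes in the overlapping class and 22 and 18 in the divergent class. The plot of ASE by kind of record shows this order.

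**Figure D3:**
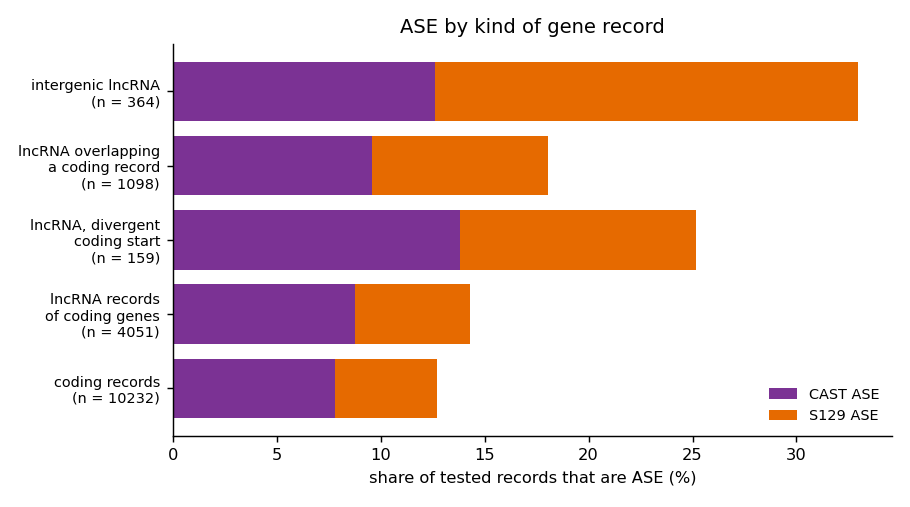
Share of tested records that are ASE (%) for 5 kinds of gene record, split into CAST ASE and S129 ASE. Intergenic lncRNA genes have the longest bar (33%), and most of it is S129 ASE.

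The most unequal CAST gene with reads from both alleles was Gm10874, a spliced lncRNA at chr5:138363719-138388287, with 313 reads from CAST and 3 from S129. The log2 fold change was 6.71 (SE 0.84, adjusted p = 4.69e-87, exact binomial test). Its span holds the pseudogenes Cyp3a61-ps1 and Got2-ps1, and it has near-identical stretches in other transcripts, Got2 among them. 2610300M13Rik on chromosome 6 had 198 and 3 reads, and Gm33301 on chromosome 15 had 140 and 4. Gm38973 (98 and 5), Gm20005 (57 and 4), Gm41392 (18 and 1) and 3830432H09Rik (16 and 1) followed with wider intervals. The last of these had a CAST share of 94.1% with an interval from 71.3% to 99.9%.

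Rprl1 is a copy of Rpph1, the RNA of ribonuclease P, which trims the leader of transfer RNAs. It had 497 CAST and 5 S129 reads at 7 variants (99.0%, interval 97.7% to 99.7%, adjusted p = 4.21e-138, exact binomial test) and a TPM of 48.7. The transcript covers chr6:69326937-69327174 on the minus strand. Over 234 aligned bases, 91.5% were identical to Rpph1, with 20 mismatched bases. They are in capitals in the sequence, which is shown because the gene's reads must be told from those of a close relative.
Rprl1: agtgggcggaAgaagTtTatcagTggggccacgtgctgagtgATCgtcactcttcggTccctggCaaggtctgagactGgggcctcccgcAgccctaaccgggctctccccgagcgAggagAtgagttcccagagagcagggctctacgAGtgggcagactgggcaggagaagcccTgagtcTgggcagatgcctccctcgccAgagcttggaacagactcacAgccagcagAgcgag
Against the other copies, identity was 88.5% for Rprl2 and 90.6% for Rprl3.

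On the S129 side, Gm10451 (chr12:76444560-76451336) had 15 CAST and 1478 S129 reads at 52 variants, a CAST share of 1% with an interval from 0.563% to 1.65%. 9330185C12Rik, which lies 2026467 bases from the nearest tested coding gene, Dsel, had 33 and 1768 reads at 111 variants. C78283 on chromosome 5 had 16 and 576 reads, and Gm26760 on chromosome 15 had 4 and 347. These 4 genes have 16 to 111 variants each. How the reads spread over the variants is not given. Gm48168 (7 and 316), Gm30717 (2 and 126), Gm38509 (2 and 60) and Gm14222 (1 and 29) had 3 to 11 variants. Gm38509 lies 119614 bases from Sox2, the pluripotency factor, which was biallelic with 1172 CAST and 1269 S129 reads. The most abundant S129 gene was 1700030C10Rik (21.9 TPM), with 368 and 2431 reads. 2600014E21Rik had 476 and 1905 reads, all at 2 intronic variants.

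Reads from a single allele were seen in 12 ASE members, 4 CAST and 8 S129 (3.3%, against 1.21% of all records). Gm31693 had 228 CAST reads and none from S129, at least 76-fold higher when 3 reads are taken as the limit of a count of 0. Gm43647, whose span overlaps the T cell receptor segment Trav22, had 132 and 0. Its 2 variants are intronic, and its TPM was 2.15 over the span but 0.00263 over exons. Gm47123 had 24 and 0, and Gm48412 had 22 and 0. On the other side, Gm35240 had 0 CAST and 162 S129 reads (at least 54-fold) and Gm2379 had 0 and 150 (at least 50-fold). Gm26639 (0 and 28), Gm19951 (0 and 20) and 1700113A16Rik (0 and 19) had fewer reads. The variants of Gm26639 and Gm19951 are also intronic, and their TPM over exons was 0.806 and 0. Of the 12, 10 had only 1 or 2 variants, and their median depth was 23 reads. Gm35240 with 12 variants and Gm2379 with 11 were the exceptions.

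**Figure D4:**
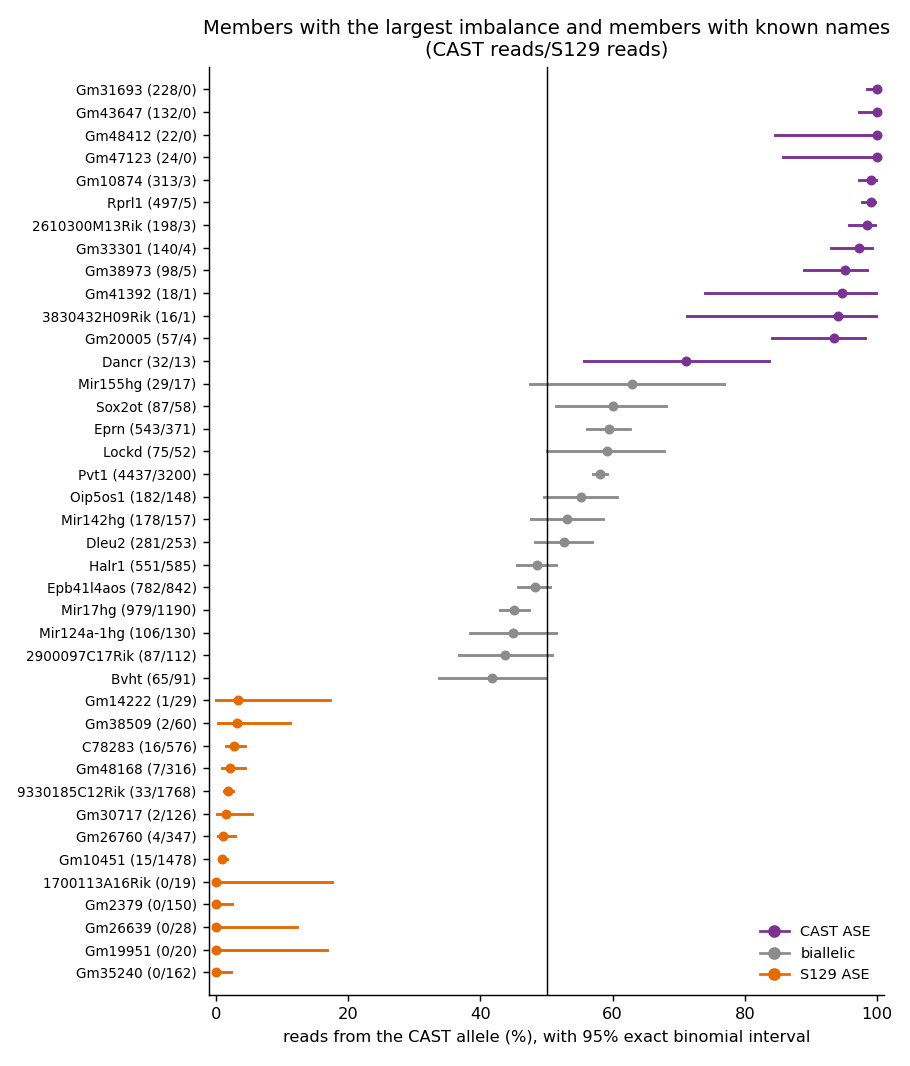
Share of reads from the CAST allele (%) with 95% exact binomial intervals for members with the largest imbalance and members with known names, with CAST and S129 read counts beside each name. The intervals of the CAST ASE and S129 ASE genes do not reach 50%, and those of most known genes span or lie near it.

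Well-known lncRNAs among the members were mostly biallelic, as were records in general (14.1% ASE) and tested members in general (33% ASE). Too few were found to set them apart from either share. Of 15 found on a list of named lncRNAs, Dancr, which holds progenitor cells back from differentiation, was the single ASE gene (32 CAST and 13 S129 reads at 1 variant, adjusted p = 0.0162, exact binomial test). Pvt1, the neighbor of Myc, had 4437 and 3200 reads (58.1% CAST), and Myc itself 110 and 72. Eprn, known as Ephemeron for its part in the exit from pluripotency, had 543 and 371 reads, a 1.46-fold difference (adjusted p = 7.75e-08, exact binomial test) that stays under 2-fold. Oip5os1 (Cyrano), which degrades miR-7, had 182 and 148. Its nearest tested coding gene, Oip5, had 120 and 0. 2900097C17Rik (Norad), which binds Pumilio proteins, had 87 and 112, and Halr1, beside the Hoxa cluster, 551 and 585. Sox2ot had 87 and 58, Lockd 75 and 52, Bvht (Braveheart) 65 and 91, Dleu2 281 and 253, and Epb41l4aos 782 and 842.

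Of the miRNA hosts shown above, Mir17hg and the let-7 host were biallelic and Gm49890 was CAST ASE. Mir17hg had 979 CAST and 1190 S129 reads (45.1% CAST), and the let-7 host 6720427I07Rik had 648 and 485 (57.2%). Other hosts were also biallelic: Mir142hg had 178 and 157, Mir155hg 29 and 17, and Mir124a-1hg 106 and 130. Gm49890, which spans miR-31, had 60 and 28 (log2 fold change 1.10, SE 0.33, adjusted p = 0.00252, exact binomial test). It was the only ASE gene of 16 tested members that hold an annotated miRNA (20 members in all, 6.25%). Of the 348 other members 34.2% were ASE, and of all records 14.1%. Too few miRNA hosts were tested to set their share apart from that of all records. In the 9 members with a snoRNA, 1 of 8 tested was ASE (Dancr, with Snora26), 12.5% against 33.4% of the 356 other members and 14.1% of all records. These reads come from the long RNA, and the mature miRNAs were not measured.

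The biallelic members with the most reads all passed the p threshold with differences under 2-fold. AU020206 had 5410 CAST and 3774 S129 reads (58.9%), Gm32885 4192 and 3753, Gm26917 3082 and 2770, and Gm48228 1647 and 1079. The variants of Gm48228 are all intronic, and its TPM was 5.57 over the span but 0.0162 over exons. Over the 244 biallelic members, 146 had a CAST share between 40% and 60%, 69 passed the p threshold without reaching 2-fold, and 32 reached 2-fold without passing the p threshold. For those 32 a difference of that size was not resolved at their depth. In the ribosomal RNA-like locus, Gm42418 was CAST ASE with 3369 and 1015 reads at 2 variants, while Gm26917 beside it was biallelic at 4 variants.

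The share of ASE was higher in members farther from coding genes. Of 115 members within 10 kb of the nearest tested coding gene, 26 were ASE (22.6%), of 132 at 10 to 50 kb 43 (32.6%), and of 117 beyond 50 kb 51 (43.6%). With at least 100 reads the shares were 13.6%, 32.9% and 50.8%. Over all records 14.1% were ASE, and 11.9% of those with at least 100 reads. At that depth the share of members within 10 kb was thus near that of all records. Of the ASE members in the 3 bins, 14, 23 and 37 were S129 ASE, and 12, 20 and 14 CAST ASE. Median depth was near equal in the 3 bins (105, 118 and 119 reads), and median TPM was 4.27, 3.97 and 3.03. No test was made of this trend, and the distance bins differ in other respects: 32 of the near members but 13 of the far ones overlap a coding gene when every isoform in GENCODE is counted.

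**Figure D5:**
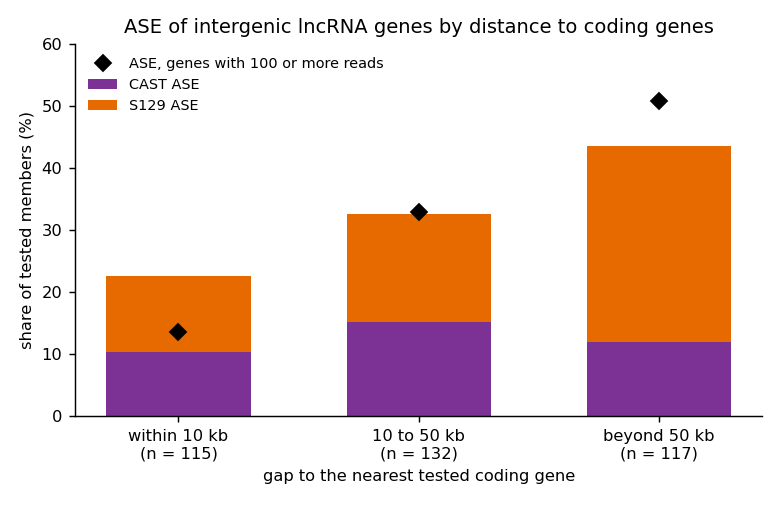
Share of tested intergenic lncRNA genes that are ASE (%), in 3 bins of distance to the nearest tested coding gene, with CAST ASE and S129 ASE stacked. Diamonds give the ASE share among members with at least 100 reads, which goes from 13.6% to 50.8%.

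The nearest tested coding gene was biallelic for 104 of the 120 ASE members. It was ASE to the same allele for 10 and to the other allele for 6. Of the 244 biallelic members, 23 (9.43%) had an ASE neighbor, against 13.3% of the ASE members. Among all 10232 tested coding records, from which the neighbors come, 12.7% were ASE, near the share beside ASE members. Across 307 pairs with at least 20 reads each, the CAST shares of member and neighbor had a Spearman rho of 0.163 and a Pearson r of 0.16, as a description over pairs that share chromosomes. The Spearman correlation was 0.0979 within 10 kb (92 pairs), 0.219 at 10 to 50 kb (112 pairs) and 0.159 beyond 50 kb (103 pairs). The examples that follow were picked for their neighbor's class. Gm29283 (464 CAST and 67 S129 reads) lies 34795 bases from Prdm14, a regulator of naive pluripotency, with 1765 and 250 reads, so the CAST shares were 87.4% and 87.6%. Gm12690 (55 and 119) and Foxd3 (112 and 386), a pluripotency and neural crest factor, were both S129 ASE. So were 4930461G14Rik with Insyn1, 4930578M01Rik with Tuba1a, Gm31415 with Noct, and Gm11635 with Rdm1.

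In the opposite arrangement, Gm10874 (CAST ASE) had Zfp157 as its neighbor, with 654 CAST and 1392 S129 reads. Gm32688 (6 and 36) lies 6268 bases from Elk3, an ETS factor, with 732 and 310, and Gm30717 (2 and 126) lies near Kdm8 (85 and 35). Gm50356 (63 and 379) and 2210420H20Rik (37 and 139) overlap each other and have Zfp236 (871 and 423) as nearest coding gene. For Gm42418 it was Cenpq (63 and 158), 1074263 bases away.

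Members within 100 kb of each other formed 60 groups with 135 genes, and 11 groups held at least 2 ASE genes. In 8 of these all ASE genes favored 1 allele, S129 in 5 groups and CAST in 3. In 4 of the 8 groups the ASE members overlap each other and can share reads. On chromosome 13, Gm48168 (7 and 316), Gm26639 (0 and 28) and Gm48170 (2 and 11) lie within chr13:65491789-65620243, overlap the lncRNA record Gm48166, and were S129 ASE. The non-reference base lay on S129 at every counted variant of these 3 genes, and at 46.3% to 47.9% of the variants of surrounding genes within 500 kb. A group just beside them, Gm36445 (139 and 99), Gm47251 (18 and 11) and Gm7762 (544 and 333), was biallelic with more CAST reads, and Gm40983 had no variant. In a group near the zinc finger gene Zfp825, E430024I08Rik (194 and 398) and Gm46430 (221 and 502) were S129 ASE, while Gm47467 (4 and 4) and Gm47469 (92 and 67) between them were biallelic. On chromosome 1, Gm33994 (29 and 19), 4933409D19Rik (17 and 15) and Gm19705 (249 and 418) were biallelic.

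The remaining 3 groups held both directions. Gm14222 (1 CAST and 29 S129 reads) lies wholly inside Gm14221 (361 and 61) on the opposite strand of chromosome 2, and the latter was CAST ASE. Gm38973 (98 and 5) and Gm44684 (14 and 65) on chromosome 7, and Gm48412 (22 and 0) and Gm40988 (19 and 75) on chromosome 13, lie apart from each other. Where spans overlap, the same reads can enter both genes: Gm26964 and A530017D24Rik lie on opposite strands and had the same counts, 191 and 256. Without the members that overlap another lncRNA record, 98 of 314 (31.2%) were ASE.

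By chromosome, numbers are small. On chromosome 12, 12 of 23 tested members were S129 ASE and none CAST ASE, while all records of that chromosome had 45 of each. Gm48693 (58 and 430), Gm49700 (1 and 23) and 1700030C10Rik lie within chr12:20615014-20815779, and the first 2 overlap. All 3 have near-identical stretches in other transcripts. The variants of Gm48693 are all intronic, and its TPM was 2.05 over the span but 0.0776 over exons. On chromosome 6, 5 of 19 were CAST ASE and none S129 ASE, while its 732 tested records had 35 CAST and 49 S129 ASE records. These chromosomes were picked after their values were seen.

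The share of ASE was also counted by other properties of the members, whose part in it was not tested. Over all records this share was 14.1%. Members that overlap an annotated pseudogene were ASE in 19 of 35 cases (54.3%), 14 of them S129, and the others in 101 of 329 (30.7%). Members with a stretch of at least 100 bases and 95% identity in another transcript numbered 192 of 508, and some of these transcripts belong to genes at the same site (Mir20a for Mir17hg, Gm26964 for A530017D24Rik). Of the 192, 33.8% of those tested were ASE, against 32.3% of the others. Members typed as lincRNA in GENCODE M21 were ASE in 89 of 245 cases (36.3%). Those typed as antisense were ASE in 7 of 47 (14.9%), near the share of all records. Spliced members were ASE in 110 of 320 cases and single-exon members in 9 of 42 (34.4% and 21.4%). Where at most 2% of the surrounding variants had the non-reference base on S129, 23 of 99 were ASE (7 CAST and 16 S129). Where 2% to 30% did, 73 of 202 were ASE (28 CAST and 45 S129), and where over 30% did, 16 of 47 were ASE, 8 for each allele.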

How the data were processed

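Total RNA-seq libraries of 2 F123 mESC replicates were mapped by the authors to mm10 (GRCm38.p6) by STAR (version 2.7.2c) with knowledge of the F123 variants, and duplicates were removed with Picard. The deposited allelic counts of reads were made with GATK, summed by the authors across a gene's exonic and intronic variants and across replicates. The authors state a minimum of 20 reads per variant, yet the smallest deposited gene sum is 8 reads, and this difference is not explained in the sources used here. For the deposited TPM, the authors scaled HTSeq counts by length and library size. The deposited fraction columns (SNP and ASE ratios), p-values, log2 fold changes and classes are the authors' own comparison or follow from it and were not used. DESeq2 is named in the submitters' processing notes and was not used here.

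The unit is the gene record, 1 gene with its most expressed transcript. Members, gene lists and named genes were chosen with earlier results of these data known. The named genes are known lncRNAs from a list, the 10 members of highest TPM, the largest and the monoallelic ASE members of each allele, the biallelic members with the most reads, the largest groups, those at the TPM threshold, those with an ASE coding neighbor, and the longest and shortest. Other names were chosen after their values were seen. CAST and S129 reads were compared by two-sided exact binomial tests with Benjamini-Hochberg adjustment. Folds against 0 reads are lower bounds with 3 reads. Surrounding variants are those of other genes within 500 kb. Biotypes, exons and overlaps come from GENCODE M21, and sequences from RefSeq (GRCm38.p6) and GENCODE. Near-identical stretches were found with BLAST (version 2.17.0). Python (version 3.11.15), pandas (2.3.3), scipy (1.17.1) and matplotlib (3.10.9) were used.

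Alternatives changed the minimum of reads, variants and TPM, the thresholds, the null share, overdispersion and the membership rule.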

Additional observations from a re-analysis of the deposited data

How the results depend on the processing

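Of 76 counts under 19 alternatives, 45 stayed within 1.5 times the counts of the report (120 ASE, 46 CAST ASE, 74 S129 ASE and 12 monoallelic members). With at least 100 reads the counts were 63, 24, 39 and 4, and with at least 50 reads 4 members were monoallelic. With at least 3 variants 2 were. At a TPM of at least 2 there were 79 ASE, 26 CAST and 5 monoallelic members, at a TPM of at least 5 there were 34, 11 CAST, 23 S129 and 1, and with no TPM minimum 209, 84, 125 and 58. Raising the absolute log2 fold minimum to 2 gave 71 ASE, 30 CAST and 41 S129 members. Among the 99 members whose surrounding variants were non-reference on S129 in at most 2%, the counts were 23, 7, 16 and 3. These settings test fewer or more genes or raise a threshold by construction. A beta-binomial spread with an intra-gene correlation of 0.05 gave 46 ASE, 17 CAST and 29 S129 members, 12.6% of members against 3.06% of all records. Under it 26 of the 40 called named genes were called, and 14 were not: Dancr and Gm48170 (lost already at 0.01), Gm42418, 2600014E21Rik, Gm41392, 3830432H09Rik, E430024I08Rik, Gm46430, 2210420H20Rik, Gm32688, Gm12690, 4930461G14Rik, 4930578M01Rik and Gm31415. The last 4 are 4 of the 6 examples with an ASE coding neighbor on the same allele.

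Of 3 alternatives chosen after seeing the data, leaving out members with near-identical stretches gave 71 ASE, 28 CAST, 43 S129 and 5 monoallelic members (32.3%), leaving out those that overlap a coding gene in GENCODE 107 (36%), and leaving out those on a pseudogene 101 (30.7%). In the main setting and all 19 alternatives the share of ASE was higher in members than in all records, and S129 held 57.7% to 69.6% of the members' ASE calls. Alternatives that only left out members were set against the unchanged share of all records (14.1%). The upper end, 69.6%, came from members whose surrounding variants were non-reference on S129 in at most 2%. Where over 30% were, a split not among the alternatives, CAST and S129 each had 8 calls among 47 tested members. No paired analysis was possible because both replicates are pooled in the table, and for the same reason neither replicate could be left out. Depth limits what can be called: 48 tested members had fewer than 20 reads. Another 148 members had no counted variant and so could not be tested at any depth.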

Other observations

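Further neighboring members with the same direction were found among the CAST ASE genes. Gm44574 (228 CAST and 90 S129 reads) and A930024E05Rik (216 and 84) overlap over 8992 bases on opposite strands of chromosome 5, and GENCODE also places a coding isoform of Kdm2b, a Polycomb subunit, over both. Gm41177 (60 and 14) and Gm30008 (29 and 8) overlap over 891 bases on chromosome 14, near Fzd3 (225 and 230). 9330102E08Rik (49 and 22) and Gm10010 (56 and 25) lie apart from each other on chromosome 6, with Tspan9 (367 and 259) as the nearest tested coding gene of both. On the S129 side, Gm49448 (286 and 617) and Gm49451 (111 and 329) on chromosome 16 have 28 and 33 variants and do not overlap.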
